A study of Mus musculus with 18 samples.

Results

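The Ube2 genes of the mouse were described in oocytes with and without VPS34. Members were all gene rows of the deposited count table whose symbol starts with Ube2 and carries no -ps suffix, which gave 40 of 55291 genes. Of these, 37 are protein-coding, Ube2d4 and Ube2nl are annotated as processed pseudogenes, and Ube2uos is an antisense RNA at the Ube2u locus and no enzyme. The suffix kept out Ube2d-ps with 416 counts, Ube2n-ps1 with 158 and Ube2l3-ps1 with 0 over the 12 oocyte libraries used. Enough counts for a test were found in 31 members. The mice were 5-week-old females that all carried floxed alleles of Vps34, the gene listed as Pik3c3, which encodes the class III phosphatidylinositol 3-kinase of autophagy and endosomes. ZcKO females also carried Zp3-Cre, in which an oocyte promoter active in growing oocytes drives the recombinase, and control females had no Cre. MII oocytes, arrested in the second meiotic metaphase, were taken 14 h after hCG, and GV oocytes, still with an intact germinal vesicle, 46 h after PMSG. Each library held 5 oocytes, and each of the 4 groups (MII ZcKO, MII control, GV ZcKO and GV control) had 3 libraries (n = 3 per group throughout). In such a pool, fewer oocytes holding an mRNA and less of it in each oocyte cannot be told apart. The series also holds 2-cell embryos, not analysed here.

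Ubiquitin is joined to proteins by a relay of enzymes. An activating enzyme (E1) loads ubiquitin onto the cysteine of a conjugating enzyme (E2), and a ligase (E3) brings the charged E2 to the protein to be marked. Most Ube2 genes encode E2s, which set whether a single ubiquitin or a chain is made and how the chain is linked, and a few carry ubiquitin-like proteins such as NEDD8 or ISG15 in place of ubiquitin. In oocytes the best known use is the anaphase-promoting complex (APC/C), the ligase that removes cyclin B and securin as meiosis proceeds. Fully grown oocytes make little new RNA, so between GV and MII their mRNA pool is remodelled mainly by decay and by changes in poly(A) tail length.

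The libraries held 2609783 to 4696626 gene counts, and ERCC spike-in RNAs took 29.3 to 39.9% of all counts at MII and 7.09 to 18.7% at GV. Gene counts per spike-in count were 1.51 to 2.42 at MII and 4.35 to 13.1 at GV. Columns carry the letters T and C, read here as ZcKO and control, and every genotype direction rests on that reading. Pik3c3 had 5.36, 2.42 and 3.21 CPM (counts scaled to equal gene totals per library) in ZcKO MII oocytes and 10.6, 21.4 and 17.1 CPM in control MII oocytes. It had 1.56, 1.65 and 2.67 CPM in ZcKO GV oocytes and 35.5, 28.8 and 25.8 CPM in control GV oocytes, and these counts were known when the letters were read. Its log2 difference was -2.19 at MII (SE 0.39, adjusted p = 0.530, edgeR) and -3.97 at GV (SE 0.32, adjusted p = 0.000151). All 14 oocyte markers had counts in each group. CT010467.1, a gene model over ribosomal RNA, took 11.1% of gene counts in ZcKO GV library 1, against 1.17 to 6.57% in the other GV libraries. Summed cumulus and granulosa cell markers, of which 11 to 12 of 14 had counts, reached 688 CPM in ZcKO MII library 1, against 125.5 to 326 CPM in the other MII libraries and 54.6 to 109 CPM at GV. Of 10 blood and immune cell markers, 2 to 3 had counts in a group at MII and 4 to 6 at GV, and their sum was 5.13 to 11.05 CPM in MII libraries, against 47.9 to 80.5 CPM in GV libraries. Most of it was C1qb, a complement gene, with 4.04 ± 1.13 CPM in ZcKO MII, 5.49 ± 1.84 CPM in control MII, 58.5 ± 13.4 CPM in ZcKO GV and 64.3 ± 15.6 CPM in control GV oocytes (mean ± SD), while Hbb-bs, Hbb-bt and Cd3e were at 0 in all 12 libraries. The part of either marker list in the maturation values was not tested.

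Together the 40 genes took 0.493% ± 0.030 of gene counts in ZcKO MII oocytes, 0.550% ± 0.039 in control MII oocytes, 0.521% ± 0.081 in ZcKO GV oocytes and 0.542% ± 0.0094 in control GV oocytes (mean ± SD). For levels between genes, CPM was divided by the length in kilobases of 1 annotated transcript per gene. On that scale Ube2t, the E2 of the Fanconi anaemia ligase that acts at crosslinked DNA, had the highest mean, at 669 ± 88.1 CPM per kb in control MII oocytes and 933 ± 79.4 CPM per kb in control GV oocytes. Ube2d3, a broadly acting E2, was next, at 605 ± 113 CPM per kb at MII and 428 ± 28.5 CPM per kb at GV in controls. The pair overlapped at MII, where control library 1 had 723 CPM per kb of Ube2d3 and 711 CPM per kb of Ube2t. In control GV oocytes Ube2c, Ube2w, Ube2a and Ube2g1 had levels of 269.7 ± 43.9, 199 ± 22.5, 109.8 ± 8.36 and 100.2 ± 7.20 CPM per kb. Ube2a and Ube2g1 overlapped between libraries. Levels of the other members reported and tested in control GV oocytes lay between 0.834 CPM per kb (Ube2v2) and 61.7 CPM per kb (Ube2b). By MII, Ube2a stood at rank 14 in control oocytes, against rank 6 at GV, and Ube2h at rank 5, against rank 11. Lengths matter here: with all annotated exons of a gene merged, Ube2t stayed first and Ube2d3 took rank 6 in control GV oocytes.

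**Figure D1:**
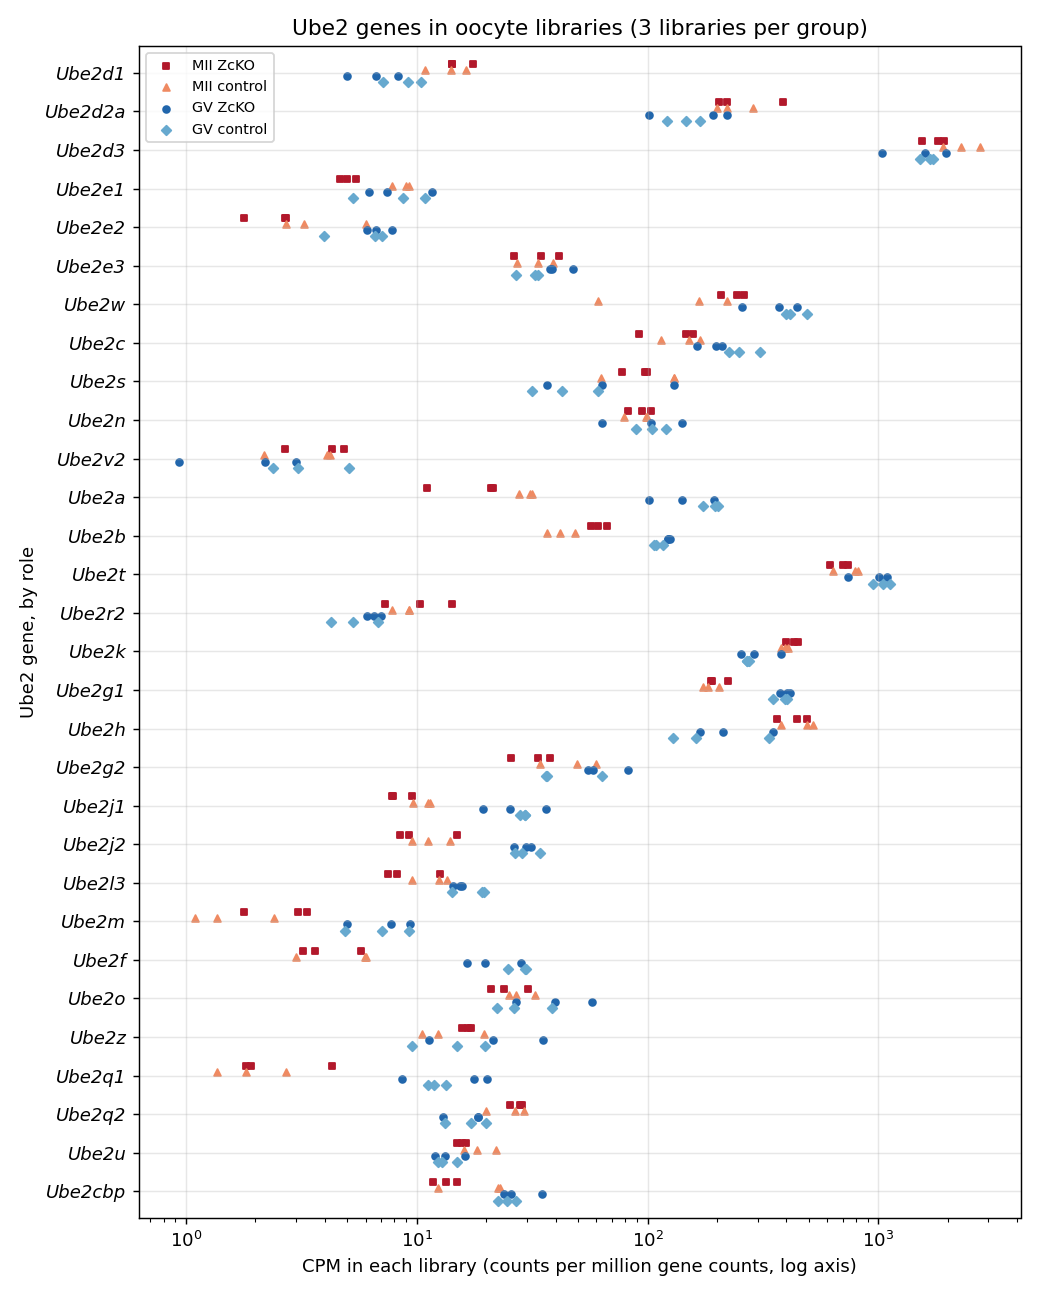
CPM (counts scaled to equal gene totals, log axis) of the 30 tested Ube2 genes in each library, with genes grouped by role from top to bottom and 3 points per group. Red and orange MII points lie left of the blue GV points for Ube2a, Ube2f and Ube2q1, and right of all of them for Ube2h and Ube2d1, on this scale of gene totals. Ube2q1 passed the count filter through its GV libraries, where it was high.

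Maturation moved many of these mRNAs, and in both directions relative to other genes. In control oocytes 20 of 31 tested members passed the test (edgeR quasi-likelihood, adjusted p under 0.05 over all genes), 10 higher and 10 lower at MII than at GV, all 10 rises being relative to the gene total and below 0 with ERCC totals. Of all 11607 genes tested, 63.9% were called, 30.1% higher and 33.8% lower, so the members' shares of 64.5%, 32.3% and 32.3% were close to the background. In ZcKO oocytes 17 of 31 were called, 6 higher and 11 lower, beside 63.5%, 29.5% and 34% of all genes. The members called lower include Ube2m, Ube2q1 and, in ZcKO, Ube2e2, which passed the count filter through the GV libraries where they were high. Both genotypes shared 6 members called higher (24.7% of all genes) and 8 called lower (30.1%), and no member was called in opposite directions (0.0172%). The members' median log2 fold change was 0.09 in control oocytes and -0.39 in ZcKO oocytes, beside 0.01 and -0.04 for all genes. Without the filter on low counts 5 of 39 tested members, rather than 10 of 31, were called higher in control, and DESeq2 called 8 (28.8% of all genes). With each genotype's 6 libraries fitted alone, 4 of 30 tested members rather than 6 of 31 were called higher in ZcKO, and 9 rather than 10 in control. The control count of higher members was 4 without control GV library 1, 5 without control GV library 3 or control MII library 1, and 6 without control MII library 3. Shares of all genes are not given for the unfiltered, 6-library and left-out fits, so these drops are not read as particular to the members.

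These log2 values are relative to the gene total of each library, adjusted by TMM factors (0.866 to 1.12 over the 12 libraries). Wherever a fitted change is called relative to the gene total, this adjusted scale is meant. Such changes therefore differ somewhat from ratios of the CPM values, which use gene totals without these factors. The protocol states that the spike-ins were added for normalization, and when library sizes were set to ERCC totals the median log2 change of all genes from GV to MII was -2.37 in ZcKO oocytes and -1.72 in control oocytes. On that scale all 31 tested members had negative values in both genotypes, from -5.07 to -0.91 in ZcKO and from -4.29 to -0.27 in control. None was called higher (0.801% of all genes in ZcKO and 0.56% in control), 29 were called lower in ZcKO (88% of all genes) and 26 in control (70.1%). A rise described below is therefore a rise relative to the other mRNAs of the oocyte, and its value on the spike-in scale is given with it. Falls, and changes said not to pass, are likewise relative to the gene total, and each was lower with ERCC totals. The part of poly(A) tail length in these counts was not tested.

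**Figure D2:**
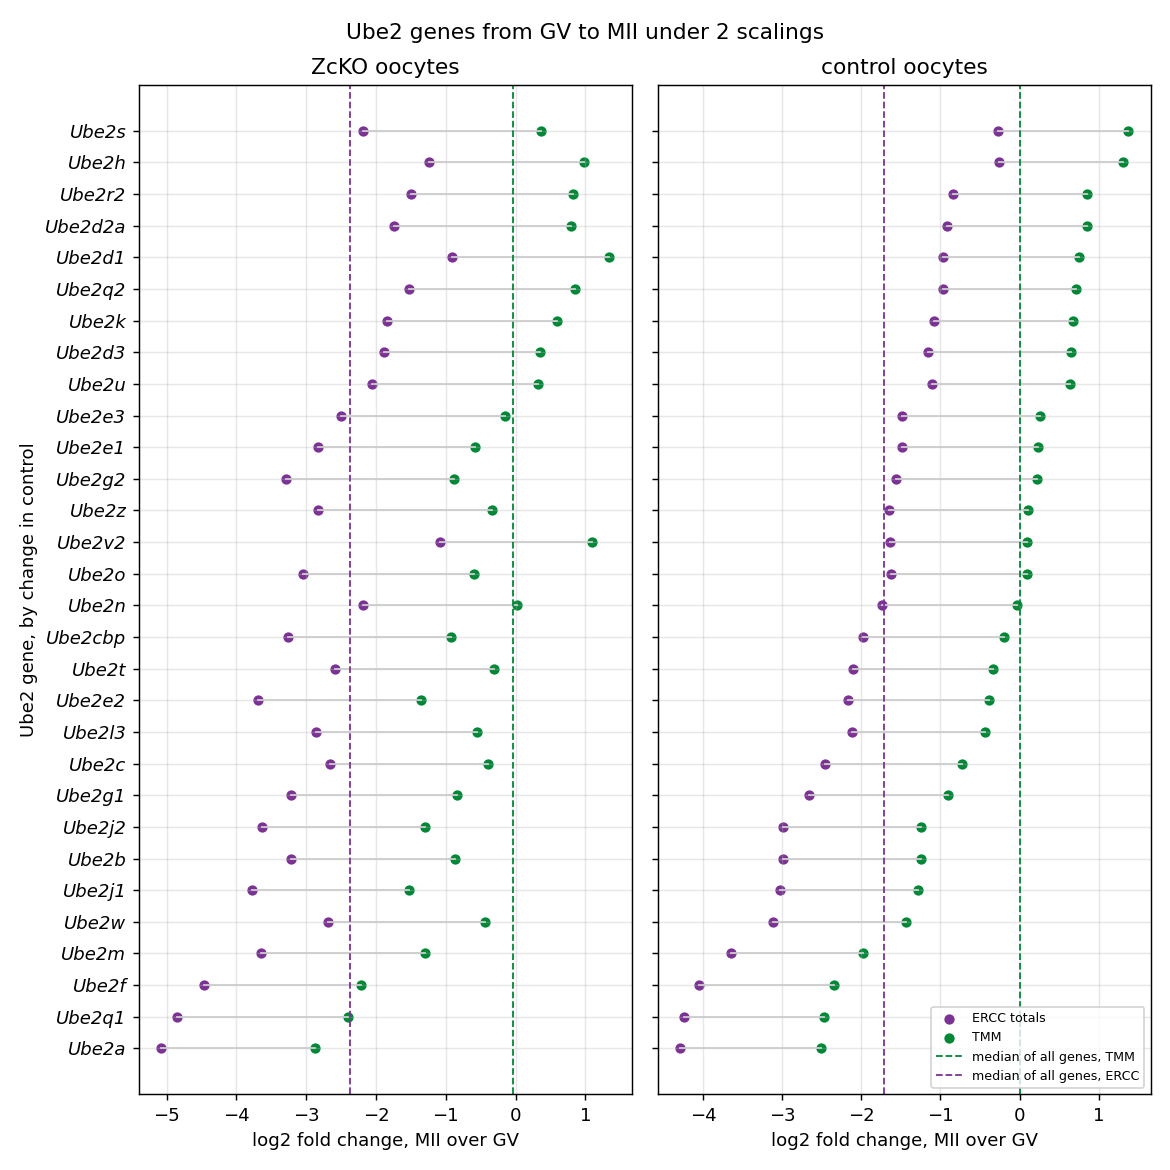
Log2 fold change from GV to MII of the 30 tested members with 2 scalings (green, TMM on gene totals; purple, ERCC totals), in ZcKO oocytes on the left and control oocytes on the right. Dashed lines mark the median of all genes, which moved to -2.37 in ZcKO and -1.72 in control with ERCC totals, where every member drawn lies below 0.

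Maturation of oocyte mRNAs is known to involve their 3′ ends, so the annotated ends were read for the members with the largest changes. The sequences below are the last bases up to and including the last match to the polyadenylation signal (capitals, AATAAA or ATTAAA) of 3 members that rose the most relative to the gene total in control or ZcKO oocytes (each below 0 with ERCC totals) and 3 that fell the most. An earlier AATAAA in the Ube2f stretch stays in lower case. The sequences come from 1 GENCODE vM21 transcript per gene (GRCm38, the assembly of mm10), on the transcript's strand, 5′ to 3′.
Ube2s: ccagaacctggatttggttttctaAATAAA
Ube2h: taatgaaaactgtaaacttttttaAATAAA
Ube2d1: tctgactgtagccttttccatataAATAAA
Ube2a: aactgtacattttcaaaagttgtaAATAAA
Ube2q1: aagttatttaaatagtttggctctAATAAA
Ube2f: accaatgcacgtgaaataaaaatcATTAAA
All 6 hold a signal in the last 40 bases, as did 27 of the 31 tested members and 77.7% of 9599 tested genes with an annotated 3′ UTR of at least 100 bases. The cytoplasmic polyadenylation element, written TTTTAT or TTTTAAT and searched on the transcript strand of the last 100 bases, is a binding site of CPEB proteins in oocytes. It stood in 4 of 31 tested members (12.9%), against 20.7% of all genes searched. Those 4 sites are shown with the element in capitals.
Ube2g2: aaaacaaagtatTTTTATtcatttgtattt
Ube2q2: ttttttttttgaTTTTATttttcattgcag
Ube2t: aaggatagtttgTTTTATttatcttgtaca
Ube2w: gtgattaatgtaTTTTATaaattacctttt
Among all genes searched, 30.8% of those called higher in control oocytes (relative to the gene total) and 10.05% of those called lower held the element. Among members it was 1 of the 10 called higher (Ube2q2), 1 of the 10 called lower (Ube2w) and 2 of the 11 not called (Ube2g2 and Ube2t). None of the 6 members with the largest changes held these letters in that window. Of these 6, Ube2q1 passed the count filter through its GV libraries, where it was high. The annotated end need not be the one used in oocytes, and a match is a description of the sequence.

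**Figure D3:**
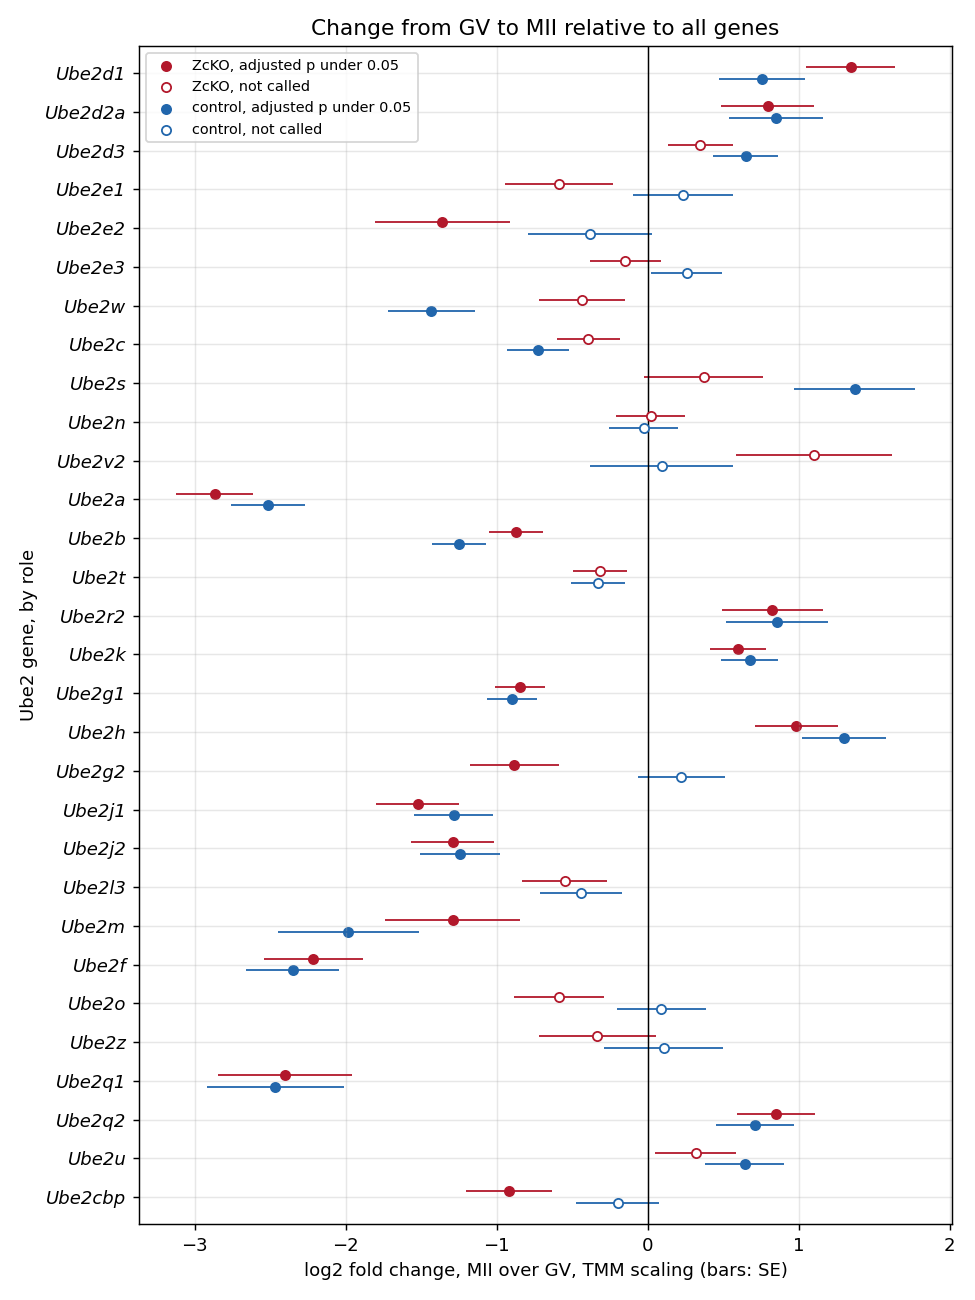
Log2 fold change from GV to MII (TMM scaling, bars: SE) of the 30 tested members, ZcKO in red above control in blue, filled where edgeR's adjusted p was under 0.05. Ube2a, Ube2q1 and Ube2f lie below -2 in both genotypes, and the points right of 0 are rises relative to the gene total that lie below 0 with ERCC totals. Ube2q1 passed the count filter through its GV libraries, where it was high, so no support is drawn from its fall.

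The E2s that start chains with many different ligases did not move as one. Of 7 tested, 2 were called higher and 1 lower in ZcKO oocytes, and 3 higher and 1 lower in control oocytes, with every rise below 0 on the ERCC scale. Beside 29.5% of all genes higher and 34% lower in ZcKO, and 30.1% and 33.8% in control, these counts were near the background. Ube2d1 (chromosome 10, 71254980 to 71285262) had 14.2, 17.6 and 14.3 CPM in ZcKO MII and 10.9, 16.3 and 14.1 CPM in control MII oocytes, against 4.98, 8.27 and 6.67 CPM in ZcKO GV and 9.13, 7.12 and 10.4 CPM in control GV oocytes. Every MII library was above every GV library in both genotypes. The log2 change was 1.34 in ZcKO (SE 0.30, adjusted p = 0.000691, edgeR) and 0.76 in control (SE 0.28, adjusted p = 0.0266), and -0.91 and -0.97 with ERCC totals. Ube2d1 lost its call in control without control MII library 2, control MII library 3, control GV library 1 or control GV library 2 (log2 0.66 to 0.75, adjusted p = 0.0596 to 0.0884), and with no filter on low counts (edgeR adjusted p = 0.181). Ube2d2a (chromosome 18, 35771558 to 35809494) had 203, 220.1 and 387 CPM in ZcKO MII and 286, 201 and 221 CPM in control MII oocytes, against 220.2, 192 and 101 CPM in ZcKO GV and 146, 169 and 121 CPM in control GV oocytes. The control groups did not overlap, while in ZcKO 2 of the 3 MII libraries lay within the GV range. It rose relative to the gene total by a log2 0.80 in ZcKO (adjusted p = 0.033, edgeR) and 0.85 in control (adjusted p = 0.0238), and stood at -1.74 and -0.91 with ERCC totals. Ube2d2a lost its call in ZcKO without ZcKO MII library 3, ZcKO GV library 2 or ZcKO GV library 3 (log2 0.39 to 0.87, adjusted p = 0.0513 to 0.266), and in control without control MII library 1, control GV library 1 or control GV library 3 (log2 0.62 to 0.82, adjusted p = 0.0671 to 0.122). It also lost its ZcKO call when the 6 ZcKO libraries were fitted alone (adjusted p = 0.0512, edgeR).

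Ube2d3 (chromosome 3, 135438149 to 135468198) had 1809, 1921 and 1548 CPM in ZcKO MII and 2771, 1904 and 2277 CPM in control MII oocytes, against 1039.8, 1593 and 1975 CPM in ZcKO GV and 1522, 1669.7 and 1735 CPM in control GV oocytes. In control oocytes each MII library exceeded each GV library, and in ZcKO the groups overlapped. The control change was called higher (log2 0.65, SE 0.22, adjusted p = 0.0133, edgeR; -1.15 with ERCC totals), and the ZcKO value was 0.35 (SE 0.21, adjusted p = 0.165). Ube2d3 lost its control call without control MII library 1 or control GV library 1 (log2 0.43 to 0.56, adjusted p = 0.0609 to 0.0854), and was called higher in ZcKO without ZcKO GV library 3 (log2 0.52, adjusted p = 0.0493). Ube2d1, Ube2d2a, Ube2d3 and the pseudogene Ube2d-ps are close copies, and how reads that fit several of them were counted is not given in the sources used here, so their split is uncertain. Ube2w, which puts a single ubiquitin on the amino terminus of a protein, had negative values on both scales. Ube2w (chromosome 1, 16540790 to 16619489) had 261, 245 and 208 CPM in ZcKO MII and 61.1, 220.1 and 168 CPM in control MII oocytes, against 257, 371 and 442 CPM in ZcKO GV and 399, 413 and 490.1 CPM in control GV oocytes. Control MII library 1 was the lowest of all 12, and MII lay below GV without overlap in control, while in ZcKO the highest MII library just exceeded the lowest GV library. The fall was called in control (log2 -1.43, SE 0.29, adjusted p = 0.000326, edgeR) and had a log2 of -0.43 (SE 0.28, adjusted p = 0.19) in ZcKO, where it was called without control MII library 1 (log2 -0.44, adjusted p = 0.0469). Of the Ube2e genes, E2s with an extended amino terminus, Ube2e2 was under 10 CPM in every library and fell in ZcKO (log2 -1.36, SE 0.45, adjusted p = 0.0131, edgeR), with -0.38 (SE 0.41, adjusted p = 0.426) in control. It had too few counts at MII for a test there and passed the filter through its GV libraries. Ube2e1 and Ube2e3 passed in neither genotype, with values between -0.59 and 0.26.

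The 2 E2s of the APC/C went opposite ways in control oocytes relative to the gene total, and both were negative with ERCC totals. Ube2c starts ubiquitin chains on APC/C substrates and Ube2s lengthens them. Ube2s (chromosome 7, 4794546 to 4812590) had 77.8, 97.2 and 99.1 CPM in ZcKO MII and 62.98, 129.8 and 131 CPM in control MII oocytes, against 130.02, 63.4 and 36.7 CPM in ZcKO GV and 42.6, 60.95 and 31.5 CPM in control GV oocytes. Control MII libraries were all above control GV libraries, whereas ZcKO GV library 1 was the highest ZcKO value of either stage. In control oocytes Ube2s rose 2.59-fold relative to the gene total (log2 1.37, SE 0.40, adjusted p = 0.00734, edgeR; -0.28 with ERCC totals). In ZcKO its log2 change was 0.37 (SE 0.39, adjusted p = 0.426), and it was called higher without ZcKO GV library 1 (log2 1.03, adjusted p = 0.0127), the library with the highest CT010467.1 share. Ube2c (chromosome 2, 164769898 to 164778822) had 158, 147 and 91.96 CPM in ZcKO MII and 114, 169 and 152 CPM in control MII oocytes, against 164, 211 and 197 CPM in ZcKO GV and 225, 308 and 249.97 CPM in control GV oocytes. MII lay below GV without overlap in both genotypes. Ube2c fell in control (log2 -0.73, SE 0.21, adjusted p = 0.00479, edgeR) and stood at -0.39 (SE 0.21, adjusted p = 0.105) in ZcKO. Exons of Ube2s share 3.56% of their bases with Rpl28 on the opposite strand, which had 2889 counts over the 12 libraries. Those of Ube2c share 22.8% with Tnnc2 on the opposite strand, which had 0 counts. The strand setting of the counting is not given in the sources used here.

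Ube2a and Ube2b, the mouse forms of yeast Rad6, which mark histone H2B and the replication clamp PCNA, both fell. Ube2a (chromosome X, 36873900 to 36884222) had 21.1, 21.5 and 11.05 CPM in ZcKO MII and 31.6, 27.8 and 30.96 CPM in control MII oocytes, against 102, 141 and 193 CPM in ZcKO GV and 174, 195 and 201 CPM in control GV oocytes. All MII libraries were far below all GV libraries. The fall was 7.31-fold in ZcKO (log2 -2.87, SE 0.26, adjusted p = 2.5e-08, edgeR) and 5.72-fold in control (log2 -2.52, SE 0.24, adjusted p = 7.1e-08), the largest of any tested member in both. Ube2b (chromosome 11, 51985497 to 52000762) had 66.7, 60.8 and 57.03 CPM in ZcKO MII and 36.8, 41.7 and 48.6 CPM in control MII oocytes, against 123, 123 and 126 CPM in ZcKO GV and 107, 108 and 117 CPM in control GV oocytes. The MII libraries of both genotypes were again all below the GV libraries. It fell 1.83-fold in ZcKO (log2 -0.87, SE 0.18, adjusted p = 0.000298, edgeR) and 2.38-fold in control (log2 -1.25, SE 0.18, adjusted p = 7.8e-06). Ube2t (chromosome 1, 134962565 to 134974162) had 739, 703 and 617 CPM in ZcKO MII and 794, 634 and 813 CPM in control MII oocytes, against 737, 1007 and 1095 CPM in ZcKO GV and 1047, 949.9 and 1127 CPM in control GV oocytes. Its control groups did not overlap and its ZcKO groups did, by a small margin. The log2 changes of -0.32 in ZcKO (SE 0.18, adjusted p = 0.133, edgeR) and -0.33 in control (SE 0.18, adjusted p = 0.117) did not pass, and in ZcKO it was called lower without ZcKO GV library 1 (log2 -0.45, adjusted p = 0.0429). With ERCC totals the changes of Ube2t were -2.59 in ZcKO and -2.10 in control, both called lower.

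Of the E2s that build chains for proteasomal degradation or serve multi-subunit ligases, 3 of 4 were called higher and 1 lower in each genotype, with all 3 below 0 on the ERCC scale, beside 29.5% of all genes higher and 34% lower in ZcKO and 30.1% and 33.8% in control. Ube2h, the E2 of the CTLH ligase, led the gains. Ube2h (chromosome 6, 30211289 to 30304539) had 446, 492 and 364 CPM in ZcKO MII and 378, 522 and 491 CPM in control MII oocytes, against 168, 213 and 351 CPM in ZcKO GV and 335, 162 and 129 CPM in control GV oocytes. MII exceeded GV without overlap in both genotypes, although control GV library 1 and ZcKO GV library 3 came close to the lowest MII library of their genotype. It rose 1.98-fold in ZcKO (log2 0.99, SE 0.28, adjusted p = 0.00472, edgeR) and 2.47-fold in control (log2 1.30, SE 0.28, adjusted p = 0.000534) relative to the gene total, and stood at -1.24 and -0.27 with ERCC totals. Ube2k (chromosome 5, 65537233 to 65598988), which builds degradation chains by itself, had 397, 432 and 448 CPM in ZcKO MII and 396, 407 and 379.6 CPM in control MII oocytes, against 380.4, 290.1 and 255 CPM in ZcKO GV and 271, 270.4 and 275 CPM in control GV oocytes. The 3 control GV libraries were nearly equal and all GV libraries lay below all MII libraries of their genotype. Its log2 rise relative to the gene total was 0.60 in ZcKO (adjusted p = 0.00922, edgeR) and 0.68 in control (adjusted p = 0.00405), against -1.84 and -1.08 with ERCC totals.

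Ube2r2, an E2 of the SCF ligases, was a low member. Ube2r2 (chromosome 4, 41135743 to 41193380) had 14.2, 7.26 and 10.3 CPM in ZcKO MII and 9.27, 7.85 and 9.23 CPM in control MII oocytes, against 6.53, 6.06 and 6.998 CPM in ZcKO GV and 6.76, 5.28 and 4.26 CPM in control GV oocytes. No GV library reached an MII library of its genotype. It was called higher relative to the gene total in ZcKO (log2 0.83, SE 0.34, adjusted p = 0.0386, edgeR; -1.50 with ERCC totals) and in control (log2 0.86, SE 0.34, adjusted p = 0.033; -0.84 with ERCC totals), close to the threshold. Ube2r2 lost its call in ZcKO without ZcKO MII library 1, ZcKO MII library 3, ZcKO GV library 1, ZcKO GV library 2 or ZcKO GV library 3 (log2 0.60 to 0.85, adjusted p = 0.0671 to 0.175), in control without control MII library 1, control MII library 3, control GV library 2 or control GV library 3 (log2 0.70 to 0.90, adjusted p = 0.0595 to 0.133), and in both genotypes with DESeq2 (adjusted p = 0.0504 in ZcKO and 0.0521 in control). Its calls were also lost with no filter on low counts (edgeR adjusted p = 0.167 in ZcKO and 0.168 in control), and that in ZcKO when the 6 ZcKO libraries were fitted alone (adjusted p = 0.0592). Ube2g1, which lengthens chains started by other E2s on cullin ligases, fell. Ube2g1 (chromosome 11, 72607283 to 72686481) had 188, 189 and 222 CPM in ZcKO MII and 174, 204 and 183 CPM in control MII oocytes, against 375, 404 and 415 CPM in ZcKO GV and 351, 394 and 402 CPM in control GV oocytes. Both MII groups lay wholly below the GV groups. The log2 fall was -0.85 in ZcKO (SE 0.17, adjusted p = 0.000251, edgeR) and -0.90 in control (SE 0.17, adjusted p = 0.000132).

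Of 3 members that serve degradation at the endoplasmic reticulum, 3 were called lower in ZcKO (34% of all genes) and 2 in control (33.8%). Ube2j1 and Ube2j2 are anchored in the membrane of that compartment. Ube2j1 (chromosome 4, 33031416 to 33052363) had 9.58, 7.87 and 7.84 CPM in ZcKO MII and 11.2, 9.66 and 11.4 CPM in control MII oocytes, against 19.3, 25.3 and 36.3 CPM in ZcKO GV and 29.4, 29.6 and 28.1 CPM in control GV oocytes. Ube2j2 (chromosome 4, 155943831 to 155959604) had 14.9, 8.48 and 9.27 CPM in ZcKO MII and 11.2, 13.9 and 9.50 CPM in control MII oocytes, against 29.9, 26.4 and 31.3 CPM in ZcKO GV and 26.7, 34.3 and 28.5 CPM in control GV oocytes. For both genes the MII and GV libraries were fully separate. The log2 falls of Ube2j1 were -1.52 in ZcKO (SE 0.27, adjusted p = 9.2e-05, edgeR) and -1.29 in control (SE 0.26, adjusted p = 0.000293). Those of Ube2j2 were -1.29 in ZcKO (SE 0.27, adjusted p = 0.000475) and -1.24 in control (SE 0.27, adjusted p = 0.000516). Ube2g2 is a soluble E2. Ube2g2 (chromosome 10, 77622275 to 77645993) had 37.9, 33.6 and 25.7 CPM in ZcKO MII and 59.98, 34.1 and 49.7 CPM in control MII oocytes, against 82.4, 57.9 and 55.3 CPM in ZcKO GV and 36.2, 63.6 and 36.6 CPM in control GV oocytes. In ZcKO the stages were separate, and in control they overlapped. It fell in ZcKO (log2 -0.88, SE 0.29, adjusted p = 0.0139, edgeR) and had a log2 of 0.22 in control (SE 0.29, adjusted p = 0.514). Ube2g2 lost its ZcKO call without ZcKO MII library 3 or ZcKO GV library 1 (log2 -0.77 to -0.64, adjusted p = 0.0587 to 0.0728). The test of the difference between genotypes is given further on.

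Among the carriers of ubiquitin-like proteins, both E2s of NEDD8 were called lower in both genotypes. As 34% of all genes were called lower in ZcKO and 33.8% in control, nothing particular to NEDD8 is read from so few genes. Ube2f, which carries NEDD8 to cullin 5, had 5.75, 3.63 and 3.21 CPM in ZcKO MII and 2.999, 6.04 and 5.97 CPM in control MII oocytes, against 16.5, 19.8 and 28.3 CPM in ZcKO GV and 29.8, 24.8 and 29.6 CPM in control GV oocytes (chromosome 1, 91250304 to 91290337). Every MII library was below every GV library. Ube2f fell 4.64-fold in ZcKO (log2 -2.21, SE 0.33, adjusted p = 1.2e-05, edgeR) and 5.11-fold in control (log2 -2.35, SE 0.31, adjusted p = 3.1e-06). Ube2m, which carries NEDD8 to the other cullins and stayed under 10 CPM, also fell, by a log2 -1.29 in ZcKO (SE 0.45, adjusted p = 0.0174) and -1.98 in control (SE 0.47, adjusted p = 0.00117). It had too few counts at MII for a test there and passed the filter through its GV libraries. Ube2m lost its ZcKO call without ZcKO MII library 3 or ZcKO GV library 1 (log2 -1.10 to -1.06, adjusted p = 0.0643 to 0.0758).

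Among 6 less studied members 1 was called higher and 2 lower in ZcKO, and 2 higher and 1 lower in control, again with no positive value on the ERCC scale. These counts were near the background, 29.5% of all genes higher and 34% lower in ZcKO and 30.1% and 33.8% in control. Ube2q1 (chromosome 3, 89773616 to 89784000), an E2 with a long amino-terminal extension, had 1.92, 1.82 and 4.28 CPM in ZcKO MII and 2.73, 1.81 and 1.36 CPM in control MII oocytes, against 17.7, 20.1 and 8.66 CPM in ZcKO GV and 11.2, 13.5 and 11.9 CPM in control GV oocytes. The MII libraries of both genotypes were all below the GV libraries. It fell 5.28-fold in ZcKO (log2 -2.40, SE 0.45, adjusted p = 0.000132, edgeR) and 5.53-fold in control (log2 -2.47, SE 0.45, adjusted p = 0.000117). Ube2q1 had too few counts at MII for a test there. It passed the count filter through its GV libraries, where it was high, so the filter favoured a fall. Its paralog Ube2q2 (chromosome 9, 55148854 to 55207529) had 25.3, 28.2 and 28.5 CPM in ZcKO MII and 19.9, 26.6 and 29.1 CPM in control MII oocytes, against 18.4, 18.5 and 12.997 CPM in ZcKO GV and 17.2, 20.1 and 13.2 CPM in control GV oocytes. Ube2q2 was higher at MII, without overlap in ZcKO and with the lowest control MII library level with the highest control GV library. It rose relative to the gene total by a log2 0.85 in ZcKO (SE 0.26, adjusted p = 0.00811, edgeR) and 0.71 in control (SE 0.26, adjusted p = 0.0212), and stood at -1.53 and -0.97 with ERCC totals. Ube2q2 lost its control call without control MII library 3, control GV library 1 or control GV library 3 (log2 0.56 to 0.69, adjusted p = 0.0582 to 0.11), and with no filter on low counts (edgeR adjusted p = 0.106). Ube2u (chromosome 4, 100478849 to 100550147) had 15.7, 16.3 and 14.97 CPM in ZcKO MII and 22.1, 15.999 and 18.2 CPM in control MII oocytes, against 16.2, 13.2 and 11.997 CPM in ZcKO GV and 14.9, 12.9 and 12.3 CPM in control GV oocytes. Its control stages did not overlap. It was called higher relative to the gene total in control (log2 0.64, SE 0.26, adjusted p = 0.0392, edgeR; -1.10 with ERCC totals), not in ZcKO (log2 0.32, adjusted p = 0.312). Ube2u lost its control call without control MII library 1, control MII library 3, ZcKO GV library 2, control GV library 1, control GV library 2 or control GV library 3 (log2 0.44 to 0.69, adjusted p = 0.0549 to 0.174) and with DESeq2 (adjusted p = 0.0529). Its call was also lost with RLE factors (edgeR adjusted p = 0.0521), with no filter on low counts (0.223) and when the 6 control libraries were fitted alone (0.0517).

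Ube2cbp, named as a binding partner of the Ube2c protein and described as a ligase in human cells, had 13.4, 11.8 and 14.97 CPM in ZcKO MII and 22.9, 12.4 and 22.5 CPM in control MII oocytes, against 25.5, 23.97 and 34.99 CPM in ZcKO GV and 24.7, 22.4 and 26.8 CPM in control GV oocytes (chromosome 9, 86307306 to 86464950). ZcKO stages were separate and control stages overlapped. It fell in ZcKO (log2 -0.92, SE 0.28, adjusted p = 0.00869, edgeR) and had a log2 of -0.20 in control (SE 0.27, adjusted p = 0.535). Ube2n, which with Ube2v2 builds chains used in signalling and DNA repair, had 95.03, 104 and 81.98 CPM in ZcKO MII and 98.96, 79.1 and 99.7 CPM in control MII oocytes, against 63.8, 103 and 142 CPM in ZcKO GV and 121, 105 and 88.8 CPM in control GV oocytes. Its stages overlapped, with log2 changes of 0.02 (SE 0.23) in ZcKO and -0.03 (SE 0.23) in control, and -2.19 and -1.74 with ERCC totals. Ube2v2, at 0.933 to 5.11 CPM, did not pass in either genotype and was called higher in ZcKO without ZcKO MII library 1 (log2 1.32, adjusted p = 0.0464), relative to the gene total. Ube2l3, the E2 of HECT and RING-between-RING ligases, did not pass (log2 -0.55 in ZcKO and -0.44 in control) and was called lower in ZcKO without ZcKO MII library 1 (log2 -0.78, adjusted p = 0.0443). Ube2o, an E2 that also acts as a ligase, did not pass (log2 -0.59 in ZcKO and 0.09 in control) and was called lower in ZcKO without ZcKO GV library 3 (log2 -0.85, adjusted p = 0.0133). Ube2z, loaded by the E1 encoded by Uba6, stood at -0.33 in ZcKO and 0.11 in control. Exons of Ube2l3 and Ube2e1 overlap Ydjc (43 counts) and Nkiras1 (8448 counts) on the opposite strand over 28.6% and 16.1% of their bases.

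**Figure D4:**
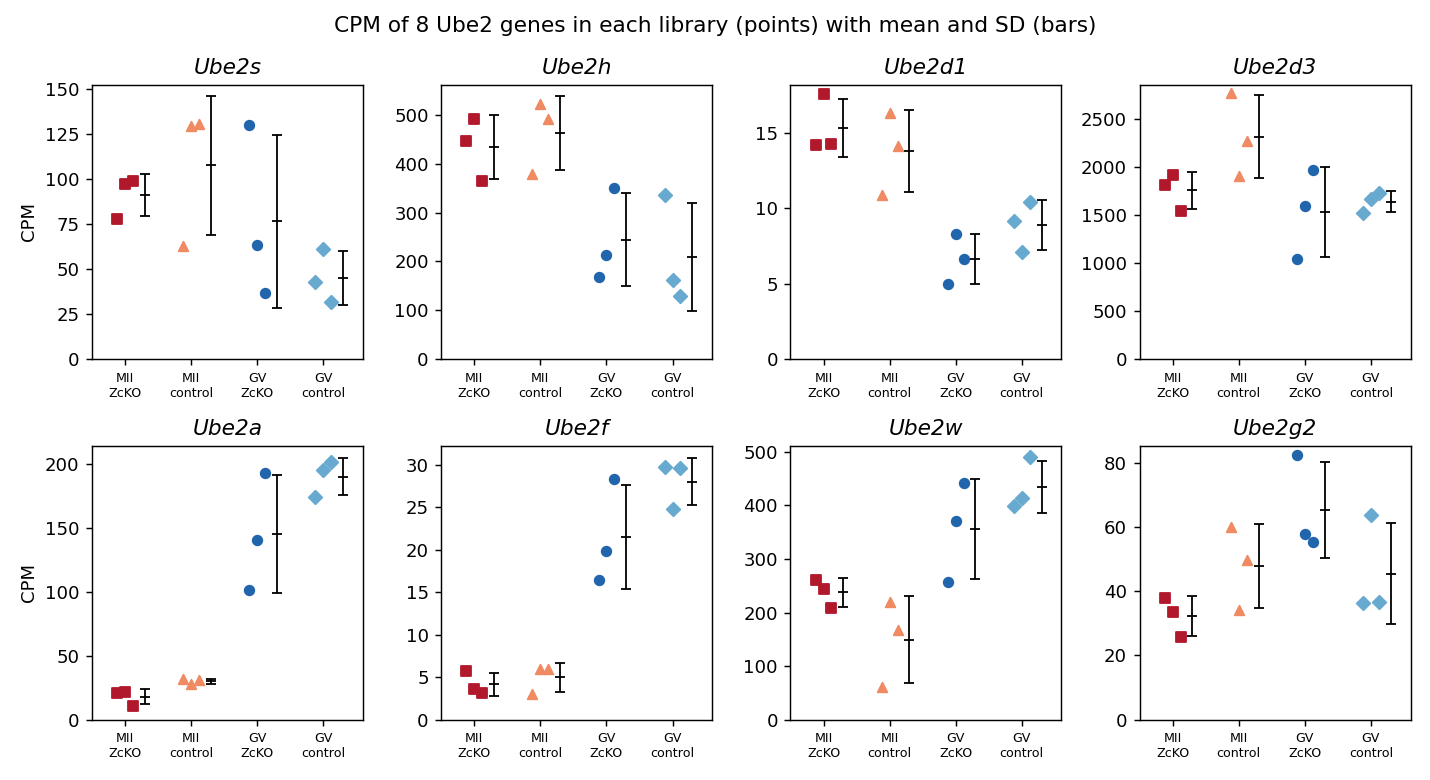
CPM of 8 members in each library (points), with mean and SD (bars), in panels whose axes start at 0. Ube2a and Ube2f are low in all 6 MII libraries, ZcKO GV library 1 is the highest ZcKO point of Ube2s, control MII library 1 is the lowest point of Ube2w, and the higher MII points of Ube2s, Ube2h, Ube2d1 and Ube2d3 are rises relative to the gene total that are negative with ERCC totals.

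Loss of VPS34 was tested at each stage. No member passed in MII oocytes (0 of 28 tested; 0% of 9677 genes, edgeR) or in GV oocytes (0 of 31; 0.0825% of 10911 genes), and DESeq2 called 0 members at both (0.0413% of all genes at MII and 0.119% at GV). At an unadjusted p under 0.05 there were 5 of 28 at MII (9.01% of all genes) and 1 of 31 at GV (2.2%). The median log2 difference of members was -0.14 at MII and 0.0040 at GV, beside 0.02 and 0.01 for all genes. With ERCC totals 0 members were called at either stage (0% of all genes at MII and 0.101% at GV), and the median of all genes was -0.15 at MII and 0.46 at GV. Simulated 4-fold changes (log2 2, dispersion 0.1) were recovered in 96.5% of 200 genes at MII and 95% at GV. Only genes with higher counts were given a change. The setting differs from these data, as Pik3c3, at -2.19, was itself not called at MII (adjusted p = 0.530, edgeR). The simulation therefore does not show what these tests could miss, and the member differences here were all smaller than log2 2.

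At MII 4 of 28 members did not overlap between genotypes, Ube2b higher and Ube2a, Ube2e1 and Ube2j1 lower in ZcKO, while 15.8% of all genes did not overlap. Ube2b was between 57.0 and 66.7 CPM in ZcKO and between 36.8 and 48.6 CPM in control MII oocytes (log2 0.50, SE 0.18, adjusted p = 0.53, edgeR; 0.34 with ERCC totals). Its paralog Ube2a had the opposite sign, with a log2 of -0.79 (SE 0.27, adjusted p = 0.53). Ube2e1 had 4.98, 5.45 and 4.63 CPM in ZcKO and 9.27, 7.85 and 8.96 CPM in control MII oocytes (log2 -0.83, SE 0.33, adjusted p = 0.531, edgeR). The remaining unadjusted values under 0.05 were Ube2d3 at -0.45 (SE 0.18, adjusted p = 0.533) and Ube2g2 at -0.62 (SE 0.26, adjusted p = 0.54). Ube2w had the largest positive value, 0.66 (SE 0.36, adjusted p = 0.593), and it was 0.31 without control MII library 1. Ube2r2 stood at 0.22 (SE 0.34) and at -0.03 without ZcKO MII library 1, the library with the highest cumulus marker sum. The part of those markers in these values was not tested.

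At GV 3 of 31 members did not overlap between genotypes, Ube2b and Ube2e3 higher and Ube2c lower in ZcKO, and 7.26% of all genes did not overlap. Ube2c had 164, 211 and 197 CPM in ZcKO and 225, 308 and 249.97 CPM in control GV oocytes, a log2 difference of -0.51 (SE 0.20, unadjusted p = 0.0227, adjusted p = 0.9999, edgeR) that was -0.10 with ERCC totals. The highest values were those of Ube2s (0.74, SE 0.41), Ube2z (0.59, SE 0.41) and Ube2g2 (0.47, SE 0.28). Ube2z had 35.1, 21.5 and 11.3 CPM in ZcKO and 14.9, 19.8 and 9.58 CPM in control GV oocytes. For these 3 genes ZcKO GV library 1, the library with 11.1% CT010467.1, was the highest of the 6. Without it their differences were 0.08, 0.09 and 0.22 in that order, and the part of CT010467.1 in them was not tested. The lowest values were Ube2v2 (-0.86, SE 0.51), Ube2c and Ube2d1 (-0.47, SE 0.32). Ube2v2 had 0.933, 2.20 and 2.999 CPM in ZcKO and 3.04, 2.37 and 5.11 CPM in control GV oocytes, and at so few counts its groups overlapped.

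**Figure D5:**
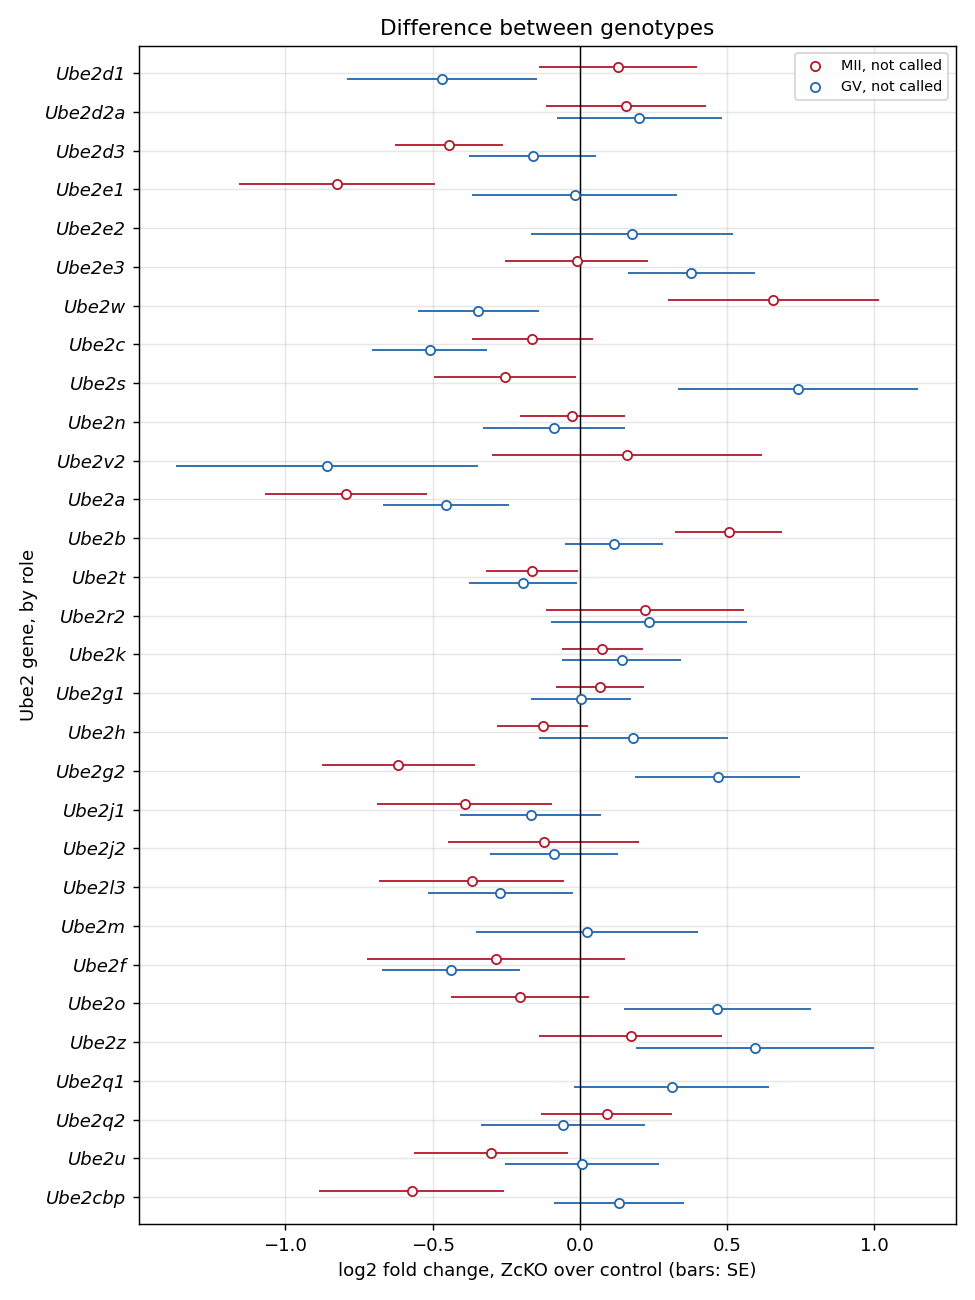
Log2 difference between ZcKO and control oocytes (bars: SE) for the tested members, MII in red above GV in blue. All points are open because none passed edgeR's adjusted p of 0.05, and they span -0.83 to 0.66 at MII and -0.86 to 0.74 at GV.

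The maturation changes were also compared between genotypes as 1 test, the log2 change in ZcKO minus that in control. No member passed (0 of 31; 0.00862% of 11607 genes, edgeR), DESeq2 called 0 (0.0431%), and 2 had an unadjusted p under 0.05 (5.24% of all genes). These were Ube2g2 (-1.10, SE 0.41, unadjusted p = 0.0148, adjusted p = 0.875) and Ube2w (0.998, SE 0.40, unadjusted p = 0.0232, adjusted p = 0.875). Ube2s, called higher relative to the gene total in control and not in ZcKO, differed by -1.001 (SE 0.56, adjusted p = 0.875). Ube2v2 differed by 1.01 (SE 0.70) and Ube2cbp by -0.72 (SE 0.39). A call present in one genotype and missing in the other is therefore not shown to differ for any member.

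The partners of these E2s were read from lists of the ubiquitin system, none of whose genes was called between genotypes. Of 5 tested ubiquitin and E1 genes, 1 was called higher and 4 lower at MII in control oocytes. The counts of this and the following lists stand beside 30.1% of all genes called higher and 33.8% called lower, and nothing particular to a list is read from them. Uba6, the E1 that loads Ube2z, was at 0.88 and the ubiquitin gene Ubb at -2.96, while Rps27a at -3.81 belongs to a family with many processed copies and is uncertain. Among 18 APC/C genes 6 were higher and 6 lower, with Cdc26 at 1.87 and Cdc20, the activator at anaphase, at 1.46, and Fzr1, the other activator, at -3.63 and Anapc13 at -2.29. Ligases of chromatin and DNA damage gave 8 higher and 3 lower of 14. Rad18, the partner of Ube2a and Ube2b at PCNA, was at 1.80 and Shprh at 1.496, against -2.55 for Rnf8 and -2.09 for Rnf40, which acts with Ube2b on histone H2B. CTLH genes gave 5 higher and 2 lower of 11, with Rmnd5a at 1.34, Ypel5 at 1.05, Rmnd5b at -2.04 and Maea at -1.67.

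In control oocytes, to which all list counts refer unless ZcKO is named, ligases of the endoplasmic reticulum gave 5 higher and 1 lower of 8. Rnf145 was at 1.09 and Rnf185 at -0.71. HECT and RING-between-RING ligases gave 12 higher and 3 lower of 24, with Itch at 1.27, Rnf14 at 1.23, Rbck1 at -2.59 and Wwp2 at -1.65. In ZcKO oocytes these lists gave 1 higher and 1 lower of 8, and 14 higher and 5 lower of 24. Of all genes, 29.5% were higher and 34% lower there. Genes of NEDD8 ligases, cullins and the COP9 signalosome gave 6 higher and 8 lower of 24, with Cul5, the cullin served by Ube2f, at 1.36, Cul1 at 1.02, Cops6 at -3.56 and Cops7a at -3.04. SUMO ligases and proteases gave 5 higher and 1 lower of 11, with Senp5 at 0.94, Pias1 at 0.72 and Senp3 at -0.88. The ubiquitin-like proteins and their E1s gave 7 higher and 2 lower of 10, with Sumo2 at 1.62, Sumo3 at -2.09 and Nedd8 at -1.66. Genes with a Ube2-type fold and another name gave 3 higher and 2 lower of 9, with Birc6 at 1.31, Cdc34b at 1.17, Ufc1 at -3.29 and Tsg101 at -0.99. All these are log2 changes in control oocytes with TMM scaling. The genes named as higher stood between -0.99 and 0.13 with ERCC totals, above 0 for Cdc26, Rad18 and Sumo2 alone.

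The 9 members without a test had few or no counts over the 12 libraries. Ube2dnl1 and Ube2uos had 23 each, Ube2v1 16, Ube2ql1 11, Ube2dnl2 4, Ube2l6 2, Ube2d2b and Ube2nl 1 each, and Ube2d4 0. Ube2v1, like Ube2v2 a partner of Ube2n that lacks the active cysteine, shares 61.5% of its exon bases with Gm20431 on the same strand, which was itself at 0, so its low count cannot be assigned with certainty. Ube2l6 is the E2 of the interferon-induced protein ISG15. Ube2e2, Ube2m and Ube2q1 were tested at GV and in the maturation fit but not at MII, where they had too few counts. They entered the maturation fit through the GV libraries, where they were high, so no support is drawn from their falls.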

How the data were processed

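The authors deposited raw counts, whole numbers for each gene symbol and library, with 92 ERCC rows beside the genes. The submitters' processing notes name fastp, HISAT2, featureCounts and mm10 and no version. Annotation release, strand setting and treatment of multimapping reads: not given in the sources used here. Of 18 samples, the 12 oocyte samples were matched to columns by name, and 6 columns that match no label were not used. The letters C and T were read as control and ZcKO with the Pik3c3 counts known. The members, the roles and the lists were chosen with earlier results of these data known.

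Counts were tested in edgeR 4.0.16 (R 4.3.3; TMM, filterByExpr, robust quasi-likelihood) with Benjamini-Hochberg adjustment over all genes tested and a threshold of 0.05. Genotypes were compared within the 6 libraries of a stage. Maturation (MII minus GV) and its difference between genotypes came from 1 fit of 12 libraries. The SE is the log2 fold change divided by the root of F. CPM scales each library to the same gene total, without TMM factors. Per-library values were set to be given for members with adjusted p under 0.05 and at least 10 CPM, the 10 highest by CPM, and the 3 highest and 3 lowest in each genotype comparison; other members are given by ranges, counts or fitted values. From each list the 2 highest and 2 lowest called genes in control maturation were named. Values of 1 member and 2 list genes are not reported here; they stay in the counts, sums and medians, and the plots draw the other 30 tested members. Alternatives were DESeq2 1.42.0, RLE factors, ERCC totals, no filter, a replicate block, other fits and leaving out each library.

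Depth was 2609783 to 4696626 gene counts per library, and Smart-seq2 reads carry no molecular identifiers. Within a group, libraries differed beyond counting noise (chi-square per degree of freedom 4.87 to 43.8). The series calls the replicates biological, but no label ties libraries to animals, so p-values measure the spread between these libraries. Simulated 4-fold changes (log2 2) were recovered in 95 to 98% of 200 genes for both genotype comparisons and for maturation in control. The simulation used 1 dispersion (0.1) and changed only genes with higher counts, so it does not cover members with few counts. Positions, lengths and 3′ ends are from GENCODE vM21 (GRCm38), where 96.2% of symbols matched exactly 1 gene.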

Additional observations from a re-analysis of the deposited data

How the results depend on the processing

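In all, 47 results had 768 alternative values, of which 714 kept their direction and side of the threshold, 39 kept only the direction and 15 changed sign. The 714 include maturation fits without a library of the other genotype, which hardly move the log2 value. They also include genotype differences that were not called in the main fit. The total is therefore no measure of how firm the results are. With ERCC totals 0 members were called higher in either genotype, and 29 (ZcKO) and 26 (control) lower, so the called total in ZcKO was 29 in place of 17. Among these 47 results, the signs that turned with ERCC totals were, in ZcKO, Ube2d1 -0.91, Ube2d2a -1.74, Ube2h -1.24, Ube2k -1.84, Ube2q2 -1.53 and Ube2r2 -1.50, and in control Ube2d1 -0.97, Ube2d2a -0.91, Ube2d3 -1.15, Ube2h -0.27, Ube2k -1.08, Ube2q2 -0.97, Ube2s -0.28 and Ube2u -1.10. Outside them, Ube2r2 in control also turned (0.86 to -0.84), as did positive maturation values that were not called. With no filter on low counts 5 of 39 tested members were called higher in control (Ube2d1, Ube2q2, Ube2r2 and Ube2u were among those that were not). The cause was not tested. With each genotype's 6 libraries fitted alone, 15 of 30 tested members were called in ZcKO (4 higher, 11 lower) and 19 of 31 in control (9 higher, 10 lower). Leaving out 1 library gave 13 to 19 members called in ZcKO (4 to 7 higher, 9 to 12 lower) and 14 to 20 in control (4 to 10 higher, 10 lower). Shares of all genes are not given for these fits or for the replicate block, so their counts are not read as particular to the members. The ZcKO minus control value of Ube2r2 at MII ranged from -0.0298 (without ZcKO MII library 1) to 0.44. No left-out library gave a member called between genotypes or in the difference of the changes. The 9 untested members had 0 to 23 counts over the 12 libraries, and low depth and absent expression cannot be told apart for them.

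Deviations from the group mean correlated at -0.214 to 0.194 between libraries of the same replicate number. With 3 libraries per group and no label of animals, these values cannot show whether libraries were paired. With the replicate block 19 members were called in control (9 higher, 10 lower) and 17 in ZcKO (6 higher, 11 lower), and 0 in the 3 other comparisons, so Ube2u alone lost its call (adjusted p = 0.0522).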
